A study of Arabidopsis thaliana with 28 samples.

Results

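Expansins and xyloglucan endotransglucosylase/hydrolases (XTH enzymes) are secreted proteins that loosen or remodel the plant cell wall. RNA sequencing of whole Arabidopsis thaliana seedlings gave the transcript levels of 40 expansin and XTH genes. The 40 genes were chosen by name and were the listed loci with a row in the deposited table, which held 23681 rows with a locus. They comprised 19 alpha-expansins (EXPA), 2 beta-expansins (EXPB), 3 expansin-like A genes (EXLA), 1 expansin-like B gene (EXLB) and 15 XTH genes.

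The samples fell into 10 groups. The lines labelled PYR1 CA, PYL4 CA, PYL5 CA and PYL6 CA were T3 plants that express CA forms of receptors of the hormone abscisic acid (ABA), and they received a mock solution. In the receptor field, CA denotes a constitutively active form, one that signals without ABA. Seedlings of aba2-1, a mutant of the ABA biosynthesis gene ABA2, and of the wild-type accession Col-0 received mock, 10 nM ABA or 50 nM ABA. All seedlings stood in liquid medium for 3 h after 7 days on plates, although the age label reads 10 days after germination. Col-0 had 2 libraries in mock and 2 at 10 nM ABA, and every other group had 3. The genetic background of the CA lines, the promoter that drives the receptors and the number of insertions were not given in the labels, so each line was set against both aba2-1 mock and Col-0 mock. Nothing in the labels says that replicates were separate cultures. A p-value here thus measures the spread between the samples as given, which may be technical.

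Expansins loosen the wall without cutting polysaccharides, by weakening the contacts between cellulose and the matrix. XTH enzymes cut xyloglucan, the hemicellulose that lies between cellulose fibrils, and rejoin the cut end to another chain or to water. Both families are known for their part in cell enlargement, and ABA is known to slow growth through PYR/PYL receptors, clade A phosphatases, SnRK2 kinases and bZIP factors that bind promoters at the ABA-responsive element core ACGTG.

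Promoters of 5 genes are shown because the results turn on them: EXPA16 was the gene called at both ABA doses in both genotypes, and XTH17, XTH18, XTH19 and XTH20 are close relatives whose transcripts moved in different directions. Each sequence is the 250 bases before the annotated gene start in the RefSeq annotation of TAIR10.1, read 5′ to 3′ on the gene's strand. The EXPA16 window is chr3:20576250-20576499 on the minus strand, and its capitals mark the only ACGTG, which begins 206 bases before the start.
EXPA16: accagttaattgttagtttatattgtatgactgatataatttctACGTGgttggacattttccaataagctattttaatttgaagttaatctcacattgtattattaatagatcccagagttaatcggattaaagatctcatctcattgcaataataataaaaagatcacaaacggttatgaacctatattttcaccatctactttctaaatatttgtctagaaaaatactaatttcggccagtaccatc
The windows of XTH17 (chr1:24256804-24257053 on the plus strand) and XTH18 (chr4:14827212-14827461 on the minus strand) end in the same 73 bases, marked in capitals. This run reaches the annotated start, and bases beyond the start were not compared. Among the 780 pairs of the 40 genes, the next longest shared run was 17 bases and the median was 9.
XTH17: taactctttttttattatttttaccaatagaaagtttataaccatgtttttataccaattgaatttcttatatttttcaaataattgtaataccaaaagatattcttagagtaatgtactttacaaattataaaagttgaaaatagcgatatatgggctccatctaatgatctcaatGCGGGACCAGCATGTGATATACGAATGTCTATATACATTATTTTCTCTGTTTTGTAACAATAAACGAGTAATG
XTH18: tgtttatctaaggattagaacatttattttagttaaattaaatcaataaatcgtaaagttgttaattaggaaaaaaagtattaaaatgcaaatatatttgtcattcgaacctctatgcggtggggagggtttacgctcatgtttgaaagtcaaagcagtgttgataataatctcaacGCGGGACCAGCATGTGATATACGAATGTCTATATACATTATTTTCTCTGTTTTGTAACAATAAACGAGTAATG
The windows of XTH19 (chr4:14830225-14830474 on the minus strand) and XTH20 (chr5:19481647-19481896 on the plus strand) are printed with no capitals. Like those of XTH17 and XTH18, they hold no ACGTG.
XTH19: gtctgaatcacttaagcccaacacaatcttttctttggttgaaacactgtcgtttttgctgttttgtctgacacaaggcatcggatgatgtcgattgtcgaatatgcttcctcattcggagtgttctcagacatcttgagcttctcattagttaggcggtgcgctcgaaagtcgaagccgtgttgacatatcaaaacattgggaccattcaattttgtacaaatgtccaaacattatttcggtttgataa
XTH20: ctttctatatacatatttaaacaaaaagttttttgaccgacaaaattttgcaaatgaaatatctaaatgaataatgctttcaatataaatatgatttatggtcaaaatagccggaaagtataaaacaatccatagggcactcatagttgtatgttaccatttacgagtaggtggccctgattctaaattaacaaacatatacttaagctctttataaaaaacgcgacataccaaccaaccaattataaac

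Of the 40 windows, 8 held ACGTG on either strand (20%), against 22.8% of 27561 windows of protein-coding genes. Among genes called at 50 nM ABA in aba2-1, given below, 1 of the 6 that rose held it, EXPA16. Of the 12 that fell, 0 held it. The G-box CACGTG, which contains ACGTG and is also an E-box, was in none of the 40 windows, against 6.46% of all. The brassinosteroid response elements CGTGTG and CGTGCG, which can overlap ACGTG, were in 6 windows (15%, against 5.35%) and in 3 windows (7.5%, against 1.56%). The E-box CANNTG was in 30 windows (75.0%, against 55.2%). A match is a string of letters and not a shown site.

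Libraries held 11.99 to 30.94 M reads. The ABA marker RAB18 averaged 16.2 normalised reads in aba2-1 mock, 245.8 at 10 nM and 1121 at 50 nM ABA. In Col-0 it averaged 24.2 in mock, 274.3 at 10 nM and 409.6 at 50 nM. Its mean was 47.41 in the line labelled PYR1 CA, 87.83 in PYL4 CA, 33.23 in PYL5 CA and 47.35 in PYL6 CA. All 5 leaf, 7 root hair, 6 other root and 5 guard cell markers had reads in every group. In aba2-1 10 nM ABA replicate 3, nuclear ribosomal RNA took 36.6% and organelle loci 41.2% of reads, against 0.89 to 6.62% and 3.29 to 8.29% in the other libraries. Replicates of aba2-1 50 nM ABA and PYL5 CA varied most, with a median gene SD of log2 values of 0.326 and 0.298, and the other groups had 0.084 to 0.167. The row PYR1-CA held 450.5 normalised reads in the line labelled PYR1 CA, against 1009 in aba2-1 mock and 591 in Col-0 mock, so its reads did not follow that label. The transgene row MCCA-NOS averaged 12317 to 22098 in the CA lines and was at 0 in aba2-1 mock and all Col-0 libraries. It held 5.925 in aba2-1 10 nM ABA replicate 2, with 0 in the other two, and 140, 34.1 and 5.32 in the aba2-1 50 nM ABA libraries.

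Levels of the genes were compared per kb of exon, as means of the 10 group means of normalised reads. XTH24 had the highest level, at 20358 per kb, and was followed by XTH15 at 6807, XTH4 at 4302, XTH22 at 2799, XTH18 at 1758 and XTH9 at 1121. XTH22, also called TCH4, is known as a touch-induced gene. EXPA1 led the expansins at 1022 per kb, ahead of EXPA16 at 743. EXLA3 stood at 11.3, EXPA12 at 2.14 and EXPA2 at 0.776. EXPA12 had no reads in 5 libraries and EXPA2 had none in 14. These last 2 genes did not reach 10 normalised reads in 2 libraries and were not tested, which left 38 of the 40.

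XTH24 held 30450, 27690 and 30401 normalised reads in PYL4 CA, 23226, 20903.5 and 30359 in aba2-1 50 nM ABA, 19736, 31060.2 and 26731 in aba2-1 mock and 19204 and 18482.5 in Col-0 mock. It passed the test in no comparison, and the 3 aba2-1 mock libraries alone spanned all values of aba2-1 50 nM ABA and PYL4 CA.

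**Figure D1:**
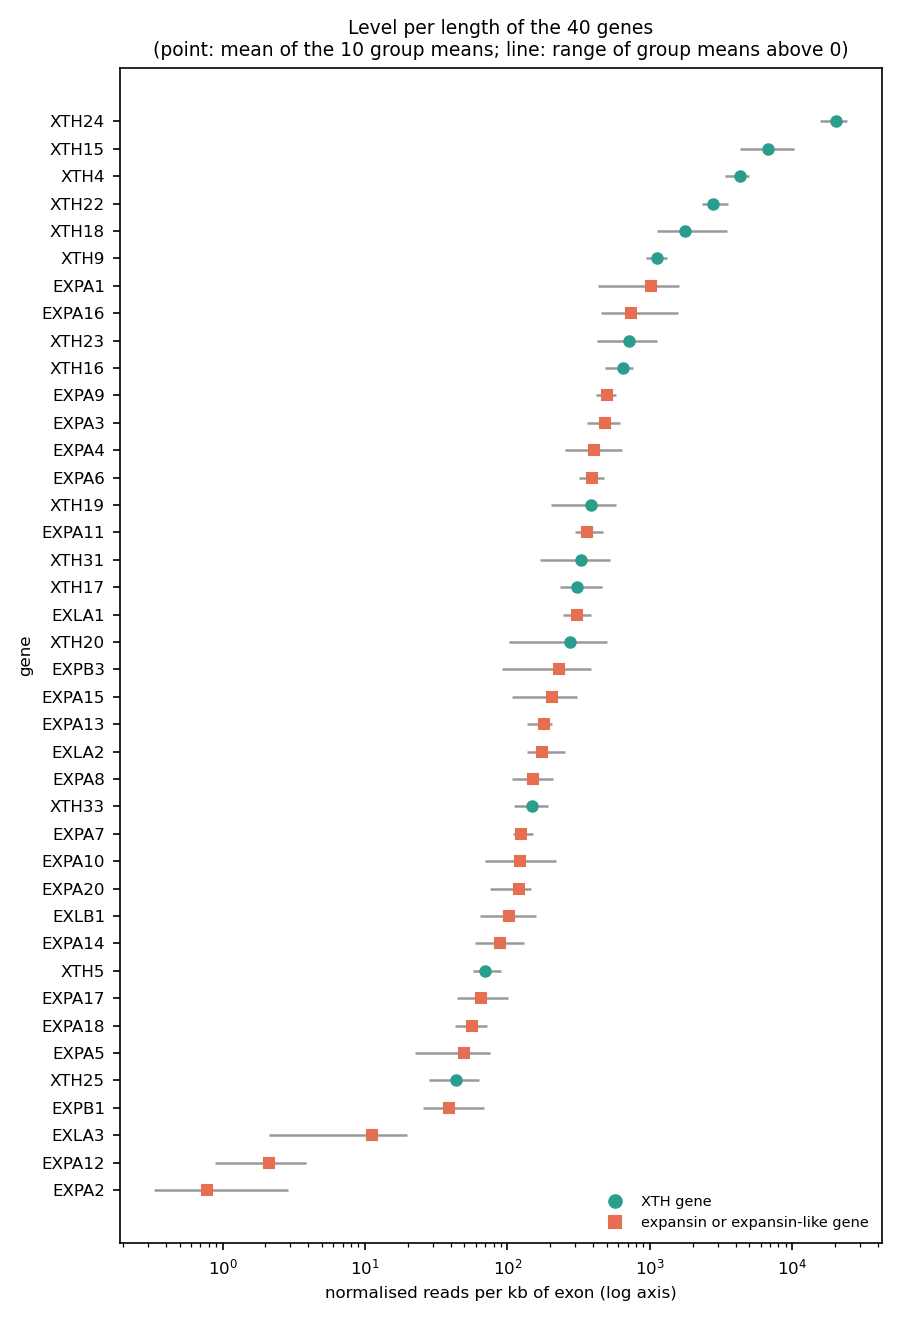
Level of each of the 40 genes per kb of exon, on a log axis. Points are means of the 10 group means and lines span the group means above 0; XTH24 stands highest at 20358 and EXPA2 lowest at 0.776.

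The 50 nM dose in aba2-1 gave the highest count of called genes among the comparisons made. Of the 38 genes, 6 rose and 12 fell in aba2-1 50 nM ABA against aba2-1 mock, or 47.4%, where 24.8% of all 21023 genes tested were called. The rises were EXPA16, EXPA10, XTH19, EXPA4, EXLB1 and XTH17. The falls were XTH20, EXPA15, XTH31, EXPB3, EXPA1, EXPB1, EXPA5, EXPA13, EXLA3, XTH16, EXPA17 and EXPA20. Among all genes, 12.7% were higher and 12.1% lower. The median log2 difference was -0.20 over the 38 genes and 0.00 over all genes. In 16 of the 18 calls the libraries of both groups did not overlap. A call itself favours groups that do not overlap, and the same share was not taken over all called genes. When the fit held only the groups compared, 6 of the 38 were called (EXPA16, EXPA10, XTH19, XTH20, EXPA15 and EXPB3) and 560 of 20440 of all genes. When the spread was weighted by group, 6 of the 38 were called (EXPA16, XTH19, XTH20, EXPA15, XTH31 and EXPA1) and 1410 of 21023 of all genes. The other 12 of the 18 genes had adjusted p from 0.051 to 0.27 in the first setting and from 0.059 to 0.32 in the second.

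At 10 nM ABA in aba2-1, EXPA16 rose and XTH20 fell, where 0.975% of all genes were called, 0.504% higher and 0.471% lower. In Col-0, EXPA16 was the gene called at 10 nM (0.0285% of all genes called). EXPA16 and EXPA10 rose in Col-0 at 50 nM, where 1.01% of all genes were called and 0.790% were higher. The doses of a genotype share its mock libraries, so they are not separate evidence. The response to 50 nM differed between the genotypes in 3 of the 38 genes, EXPA16 higher and XTH31 and XTH20 lower in aba2-1, where 2.05% of all genes were called, 0.609% higher and 1.44% lower. Without aba2-1 50 nM ABA replicate 3 this count was 5, and it was 1 without Col-0 mock replicate 2, Col-0 50 nM ABA replicate 1 or 2, or aba2-1 mock replicate 1 or 3. With the compared groups alone it was 0, EXPA16 included (0.084). The shares of all genes called in these further fits are not set beside the counts.

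**Figure D2:**
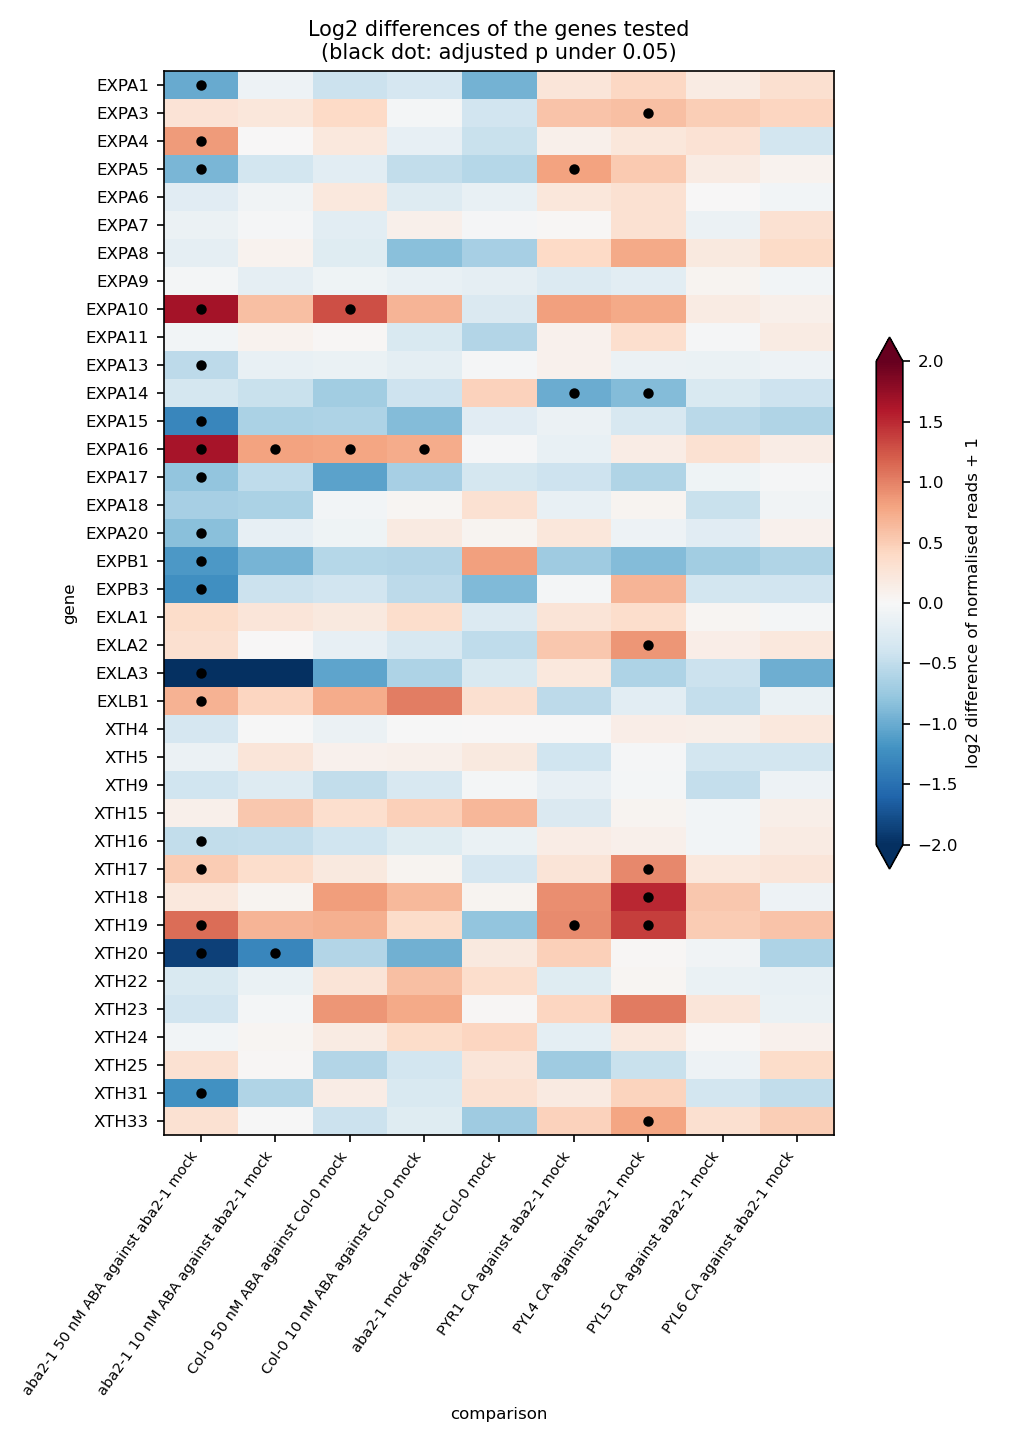
Log2 difference of each of the 38 genes tested (rows) in 9 comparisons (columns); red is higher and blue lower in the group named first, the colour scale stops at 2 and -2, and black dots mark limma adjusted p under 0.05. EXPA16 carries a dot in all 4 ABA columns, and the column of aba2-1 50 nM ABA holds 18 dots.

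EXPA16 (AT3G55500) rose with ABA in both genotypes. In aba2-1 it held 577, 642 and 679.5 normalised reads in mock, 1136, 1083 and 1081 at 10 nM and 2176, 2026 and 1743 at 50 nM. All 50 nM libraries lay above all 10 nM libraries, and these above all mock libraries. The difference from mock was 1.74-fold at 10 nM (log2 difference 0.80, SE 0.10, limma adjusted p = 0.0001) and 3.12-fold at 50 nM (log2 difference 1.64, SE 0.10, limma adjusted p = 2.7e-10). Between 50 nM and 10 nM it was 1.79-fold (log2 difference 0.84, SE 0.10, limma adjusted p = 2.2e-05). In Col-0 it held 677 and 603.5 in mock, 1072 and 1071 at 10 nM and 1246, 1009.8 and 1058 at 50 nM. Here both doses lay above mock and overlapped each other. The difference from mock was 1.68-fold at 10 nM (log2 difference 0.74, SE 0.13, limma adjusted p = 0.017) and 1.72-fold at 50 nM (log2 difference 0.78, SE 0.12, limma adjusted p = 0.0009). The call at 10 nM in Col-0 ended without any 1 of the 4 libraries, with adjusted p from 0.11 to 0.49. The call at 50 nM ended without Col-0 mock replicate 2 (adjusted p = 0.07).

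The response of EXPA16 to 50 nM was larger in aba2-1 than in Col-0 by 0.86 on the log2 scale (limma adjusted p = 0.0037). That difference passed without any single library, with adjusted p from 0.001 to 0.046, and did not pass with the compared groups alone (0.084). In the CA lines EXPA16 was called against neither mock group, at 569.8 in the line labelled PYR1 CA, 705 in PYL4 CA, 786 in PYL5 CA and 698 in PYL6 CA, against 633 in aba2-1 mock and 640.4 in Col-0 mock.

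EXPA10 (AT1G26770), an alpha-expansin known from leaf growth, also rose at 50 nM in both genotypes. In aba2-1 it held 135, 101 and 90.8 in mock, 153, 150.5 and 189.8 at 10 nM and 367, 397 and 274.5 at 50 nM. The 50 nM libraries lay above all others of the genotype. Its difference from mock at 50 nM was 3.16-fold (log2 difference 1.66, SE 0.26, limma adjusted p = 0.0001), and the call did not pass with the spread weighted by group (adjusted p = 0.059). Against 10 nM the log2 difference was 1.06 (limma adjusted p = 0.016), a call that ended without 10 nM replicate 1 (0.05), 10 nM replicate 2 (0.056) or 50 nM replicate 2 (0.096). In Col-0, EXPA10 held 318, 484 and 215 at 50 nM, against 160.4 and 107.5 in mock, with no overlap. The Col-0 difference was 2.43-fold (log2 difference 1.28, SE 0.29, limma adjusted p = 0.032), and it ended without mock replicate 1 (0.093), mock replicate 2 (0.56), 50 nM replicate 1 (0.1) or 50 nM replicate 2 (0.18), and with the compared groups alone (0.16).

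EXPA4 (AT2G39700), which shares 80.2% of coding bases with EXPA16, held 1008, 1353.5 and 510.2 in aba2-1 50 nM ABA, against 598, 403 and 495 in aba2-1 mock. Replicate 3 of the treated group lay inside the mock range and replicate 2 was highest. The difference was called (log2 difference 0.85, SE 0.23, limma adjusted p = 0.011), and without 50 nM replicate 2 the adjusted p was 0.11 and without mock replicate 2 it was 0.058. Against 10 nM ABA, where EXPA4 held 559, 428 and 503, the difference was 0.84 (limma adjusted p = 0.024). That call ended without 50 nM replicate 2 (0.22), 50 nM replicate 1 (0.066), 10 nM replicate 2 (0.086) or 10 nM replicate 3 (0.053). How the counting shared reads between genes this similar was not given, so EXPA4 and EXPA16 are uncertain to that extent.

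**Figure D3:**
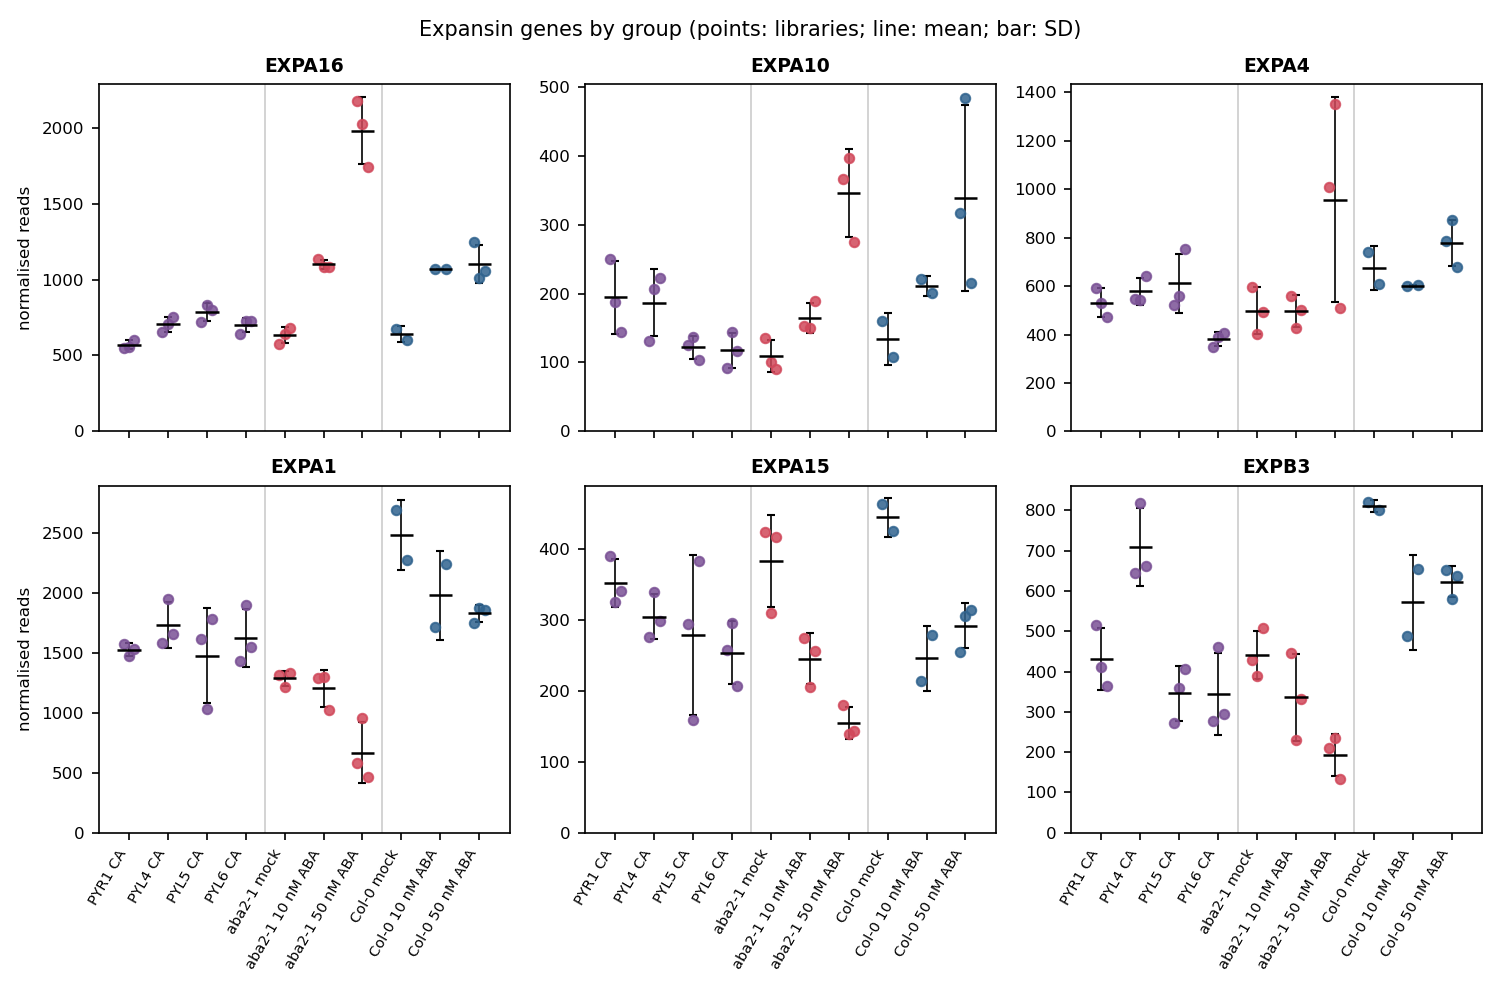
Normalised reads of 6 expansin genes in each library (points) with the mean and SD of each group; the CA lines stand at left, aba2-1 in the middle and Col-0 at right, with doses from mock to 50 nM. EXPA16 and EXPA10 stand highest in ABA-treated groups, and EXPA1, EXPA15 and EXPB3 stand lowest in aba2-1 50 nM ABA.

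EXPA1 (AT1G69530), an alpha-expansin known for its part in guard cell walls, had the highest level per kb among expansins and fell at 50 nM in aba2-1. In aba2-1 it held 1319, 1214 and 1332 in mock, 1288, 1299 and 1028 at 10 nM and 583.5, 958.5 and 466 at 50 nM. All 50 nM libraries lay below all others of the genotype. The difference from mock was -1.01 on the log2 scale (SE 0.20, limma adjusted p = 0.0011), and that from 10 nM was -0.91 (limma adjusted p = 0.008). With only the groups compared, the adjusted p was 0.1 against mock and 0.39 against 10 nM. In Col-0 EXPA1 averaged 1831 at 50 nM, against 2486 in mock, which did not pass (log2 -0.44, limma adjusted p = 0.58).

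EXPA15 (AT2G03090) held 180.0, 139.6 and 144 in aba2-1 50 nM ABA, against 423.5, 309 and 416 in aba2-1 mock. The groups did not overlap, and EXPA15 fell (log2 difference -1.30, SE 0.22, limma adjusted p = 0.00021), a call kept in all 6 fits without 1 library and in all other settings. At 10 nM it held 275, 205 and 256 (log2 -0.64, limma adjusted p = 0.28). In Col-0 it averaged 444.5 in mock, 246 at 10 nM and 291 at 50 nM, with limma adjusted p against mock of 0.64 and 0.34.

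The other alpha-expansins that fell at 50 nM in aba2-1 did so by less. EXPA5, linked to brassinosteroid-dependent growth, averaged 31.9 ± 2.04 in aba2-1 50 nM ABA, against 61.2 ± 10.5 in mock (log2 -0.91, limma adjusted p = 0.0025). EXPA13 held 212, 157 and 222, against 276, 278 and 288 (log2 -0.52, limma adjusted p = 0.0037). In both genes every treated library lay below every mock library. Both calls ended with the compared groups alone (0.098 for EXPA5 and 0.19 for EXPA13) and with weighting by group (0.15 and 0.083). EXPA17, known in lateral root emergence, averaged 49.0 ± 4.19, against 86.6 ± 19.6 (log2 -0.79, limma adjusted p = 0.034). EXPA20 averaged 86.3 ± 36.4, against 145 ± 18.9 (log2 -0.84, limma adjusted p = 0.038). EXPA17 lost its call without mock replicate 2 (0.078), mock replicate 3 (0.14) or 50 nM replicate 2 (0.12). EXPA20 lost it without 50 nM replicate 2 (0.35) or without mock replicate 1, 2 or 3 (0.073, 0.059 and 0.12). EXPA20 also overlaps an antisense long noncoding RNA gene, AT4G38215, by 1061 bases, and whether counting used strand was not given.

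EXPA13 was lower at 50 nM than at 10 nM as well (log2 -0.37, limma adjusted p = 0.047), where it held 244, 241 and 274. This call ended in edgeR (0.078), in DESeq2 (0.1) and without 50 nM replicate 2 (0.38), or 10 nM replicate 1, 2 or 3 (0.082, 0.078 and 0.13). In all, 6 of the 38 genes differed between the doses in aba2-1, 3 higher and 3 lower at 50 nM, where 11.6% of all genes were called, 6.08% higher and 5.47% lower. This count was 12 without 50 nM replicate 3 and 3 without any 1 of the 10 nM replicates. With the compared groups alone none of the 6 was called, EXPA16 included (0.12), and with weighting by group 1 was. No share of all genes is set beside the counts of these further fits, so they were not read as a result.

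EXPA7 and EXPA18, the expansins known from growing root hairs, did not pass at either dose. EXPA7 averaged 125 ± 20.8 in aba2-1 50 nM ABA, against 135 ± 21.7 in mock (limma adjusted p = 0.74). EXPA18 averaged 53.9 ± 16.1, against 83.9 ± 9.34 (limma adjusted p = 0.082). Summed root hair markers in the 3 treated libraries were 1436, 4151 and 769.5, against 1038, 1150 and 1193 in mock. Of the 7 root hair markers, 1 rose and none fell, where 12.7% of all genes were higher and 12.1% lower. Summed leaf markers were 348029, 235993 and 468588, against 428395, 466460 and 449918, with 2 of 5 lower and none higher. Summed other root markers were 2806, 4644.5 and 2394, against 2045, 2368 and 2345. Summed guard cell markers were 1308, 1975 and 997.6, against 1188.5, 1137 and 1201. Within its group, replicate 2 of aba2-1 50 nM ABA had the most root hair, other root and guard cell marker reads and the least leaf marker reads. The part of tissue makeup in the results was not tested. In whole seedlings, fewer cells of a type and less RNA per cell cannot be told apart.

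A further fit left out 3 libraries, a choice made after seeing the data. They were aba2-1 10 nM ABA replicate 3, aba2-1 50 nM ABA replicate 2 and PYL5 CA replicate 2. In that fit 14 of the 38 genes were called in aba2-1 50 nM ABA against mock. These 3 were not all the furthest from their groups. The correlation with the mean of the group's other libraries was lowest, at 0.948, in aba2-1 50 nM ABA replicate 2. Next came aba2-1 10 nM ABA replicate 3, at 0.960. In PYL5 CA replicate 2 the correlation was 0.966. It was lower, at 0.963, in aba2-1 50 nM ABA replicate 3, which was kept. Without any 1 library of the 6, between 13 and 19 were called, and 12 of the 18 calls held in each of these fits. The shares of all genes called in these fits are not given here. The counts thus do not separate a change in these genes from a change in calls over all genes.

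Both beta-expansins fell at 50 nM in aba2-1. EXPB3 (AT4G28250) held 428, 389.8 and 507 in aba2-1 mock, 445, 231 and 331 at 10 nM and 211, 235 and 133 at 50 nM. The 50 nM libraries lay below all mock libraries and overlapped the 10 nM libraries. The 50 nM difference was -1.22 on the log2 scale (SE 0.23, limma adjusted p = 0.00068), and the adjusted p was 0.06 with the spread weighted by group. Between doses it was -0.79 (limma adjusted p = 0.034), a call that ended without 10 nM replicate 1 (0.14), 10 nM replicate 3 (0.074) or 50 nM replicate 3 (0.067). EXPB1 (AT2G20750) held 47.8, 32.4 and 62.4 in aba2-1 50 nM ABA, against 114, 88.1 and 110.0 in mock, with no overlap (log2 difference -1.16, SE 0.25, limma adjusted p = 0.0021), and its adjusted p was 0.085 with the compared groups alone and 0.082 with weighting by group. In Col-0, EXPB3 averaged 623 at 50 nM, against 812 in mock, and EXPB1 39.5, against 59.5; neither passed (limma adjusted p = 0.82 and 0.53).

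The expansin-like genes are relatives of expansins whose action on walls is less well known. EXLA3 (AT3G45960) held 3.41, 0 and 5.32 normalised reads in aba2-1 50 nM ABA, against 12.5, 33.8 and 21.6 in mock. Those values rest on 4, 0 and 7 reads, against 12, 28 and 19. The call (log2 difference -2.85, SE 0.69, limma adjusted p = 0.0056) ended without 50 nM replicate 2 (0.06), with the compared groups alone (0.11) and with weighting by group (0.08). EXLA1, which shares 86.0% of its coding bases with EXLA3 and lies 2012 bases away on the same strand, averaged 347 ± 29.3, against 278.5 ± 91.8 (limma adjusted p = 0.21). EXLB1 (AT4G17030) held 160.4, 114 and 259, against 84.1, 131.5 and 99.8 in mock, and the groups overlapped. Its call (log2 difference 0.70, SE 0.23, limma adjusted p = 0.03) ended without 50 nM replicate 1 (0.05), 50 nM replicate 3 (0.14), mock replicate 1 (0.12) or mock replicate 3 (0.079). In Col-0, EXLB1 averaged 82.5 in mock, 170.4 at 10 nM and 139 at 50 nM, and neither dose passed (limma adjusted p = 0.4 and 0.21).

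XTH17, XTH18, XTH19 and XTH20 form a group of close relatives known from root expression, with pairwise coding identities of 79.6 to 87.6%. XTH18 and XTH19 are neighbours on chromosome 4, 1500 bases apart on the same strand with no annotated gene between them, and XTH24 lies 5161 bases from XTH18. XTH17 lies on chromosome 1 and XTH20 on chromosome 5. In aba2-1 at 50 nM, XTH19 and XTH17 rose, XTH20 fell and XTH18 did not pass. At identities this high the counting could misplace reads among the 4 genes, and how it shared them was not given.

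XTH20 (AT5G48070), like XTH19 known from the reunion of cut stem tissue, held 586.5, 395 and 558 in aba2-1 mock, 169, 203 and 247 at 10 nM and 129.7, 209 and 97.3 at 50 nM. Every treated library lay below every mock library, and the doses overlapped. The fall was 2.47-fold at 10 nM (log2 difference -1.31, SE 0.22, limma adjusted p = 0.0023) and 3.64-fold at 50 nM (log2 difference -1.86, SE 0.22, limma adjusted p = 2.4e-06). Both calls held without any 1 library and in all other settings, with adjusted p up to 0.025 at 10 nM and up to 0.024 at 50 nM. In Col-0 XTH20 held 390.3 and 499 in mock, 224.5 and 230.2 at 10 nM and 293, 363 and 237 at 50 nM. The treated libraries again lay below mock, with log2 differences of -0.95 and -0.59, which did not pass (limma adjusted p = 0.53 and 0.39). The 50 nM response was lower in aba2-1 than in Col-0, with a difference of -1.27 on the log2 scale (SE 0.33, limma adjusted p = 0.044). That call ended without 7 of the 11 libraries, with adjusted p up to 0.23: both Col-0 mock libraries (0.23 and 0.097), Col-0 50 nM replicates 1 and 2 (0.093 and 0.12), aba2-1 mock replicates 1 and 3 (0.1 each) and aba2-1 50 nM replicate 1 (0.079). It also ended with the compared groups alone (0.25) and with weighting by group (0.078).

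XTH19 (AT4G30290) held 268, 234 and 309 in aba2-1 mock, 463, 453 and 375 at 10 nM and 653, 553 and 546 at 50 nM. The 3 groups did not overlap and stood in order of dose. The difference from mock did not pass at 10 nM (log2 0.67, limma adjusted p = 0.085) and was 2.16-fold at 50 nM (log2 difference 1.11, SE 0.18, limma adjusted p = 0.00014). In Col-0 XTH19 held 480.2 and 454 in mock, 592 and 619 at 10 nM and 724, 829 and 749 at 50 nM. These groups also stood in order of dose without overlap, but the differences did not pass (log2 0.37 and 0.71, limma adjusted p = 1 and 0.098).

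XTH17 (AT1G65310) held 499, 419 and 337 in aba2-1 50 nM ABA, against 242, 325 and 306 in mock, with the lowest treated library just above the highest mock library. The difference was called (log2 difference 0.52, SE 0.16, limma adjusted p = 0.027), and it ended without 50 nM replicate 1 (0.12), 50 nM replicate 2 (0.084) or mock replicate 1 (0.12). XTH18 (AT4G30280), which shares the 73-base run before its start with XTH17, held 1788, 2097.5 and 1359.6, against 1057, 1593 and 1965, and these overlapped (log2 0.21, limma adjusted p = 0.6). In Col-0 XTH18 held 2563, 2808 and 2377 at 50 nM, against 1493 and 1390.0 in mock, above mock in every library but not past the test (log2 0.84, limma adjusted p = 0.27).

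**Figure D4:**
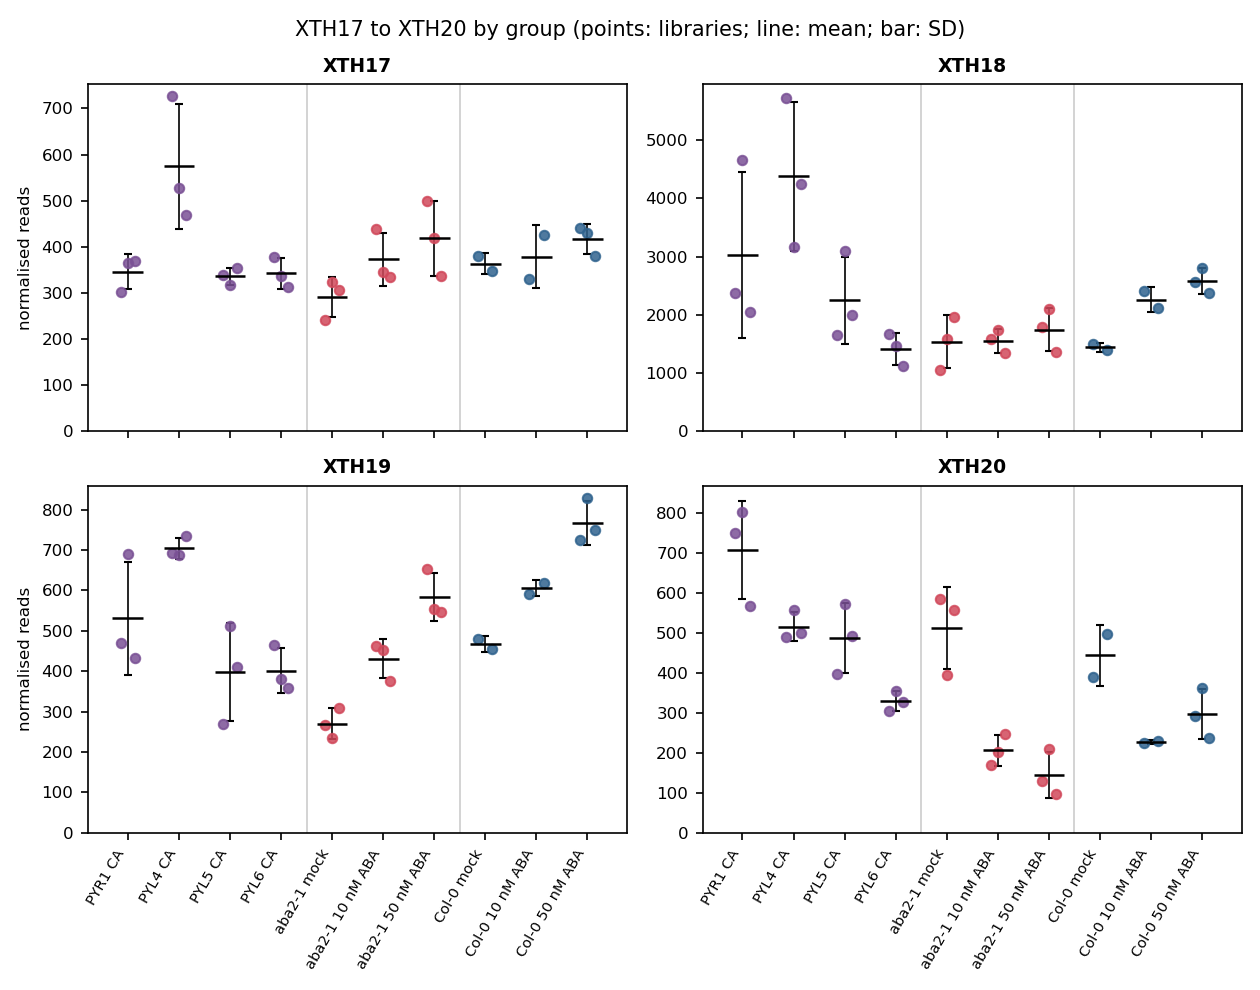
Normalised reads of XTH17, XTH18, XTH19 and XTH20 in each library (points) with the mean and SD of each group; the CA lines stand at left, aba2-1 in the middle and Col-0 at right, with doses from mock to 50 nM. In aba2-1, XTH19 stands higher and XTH20 lower at 50 nM than in mock, and XTH17, XTH18 and XTH19 stand higher in PYL4 CA than in aba2-1 mock.

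XTH31 (AT3G44990), a member of the branch known for xyloglucan hydrolase activity, held 284, 229.8 and 189 in aba2-1 50 nM ABA, against 627, 385 and 644 in mock. The groups did not overlap (log2 difference -1.21, SE 0.21, limma adjusted p = 0.00024), and with the compared groups alone the adjusted p was 0.051. In Col-0 it held 534, 604 and 338.5 at 50 nM, against 493 and 381 in mock, which overlapped. The difference between the genotypes' responses was -1.36 on the log2 scale (SE 0.31, limma adjusted p = 0.021). It ended without Col-0 mock replicate 2 (0.16), Col-0 50 nM replicate 1 (0.063) or 2 (0.066), or aba2-1 mock replicate 1 (0.057) or 3 (0.066), with the compared groups alone (0.19) and with weighting by group (0.089).

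XTH16 averaged 587 ± 63.4 in aba2-1 50 nM ABA, against 829 ± 71.1 in mock, with no overlap, and was called (log2 -0.50, limma adjusted p = 0.0066), but not with the compared groups alone (0.15) or with weighting by group (0.12). Of the 15 XTH genes, 10 did not pass, among them the 4 with the highest level per kb. XTH15 averaged 9501.5 ± 4086 in aba2-1 50 nM ABA, against 8397 ± 1781 in mock, XTH4 averaged 5475 ± 796, against 6952.5 ± 1058, and XTH22 averaged 3854 ± 721, against 4918 ± 1881. XTH15 overlaps the antisense gene AT4G14120 by 382 bases. Summed over the 15 genes, XTH reads were 49908 ± 10349 in aba2-1 50 nM ABA, against 53173 ± 10371 in mock (SD, n = 3 each). Summed over the 25 expansin and expansin-like genes, reads were 8306 ± 900 in aba2-1 50 nM ABA, against 7541 ± 536 in mock.

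**Figure D5:**
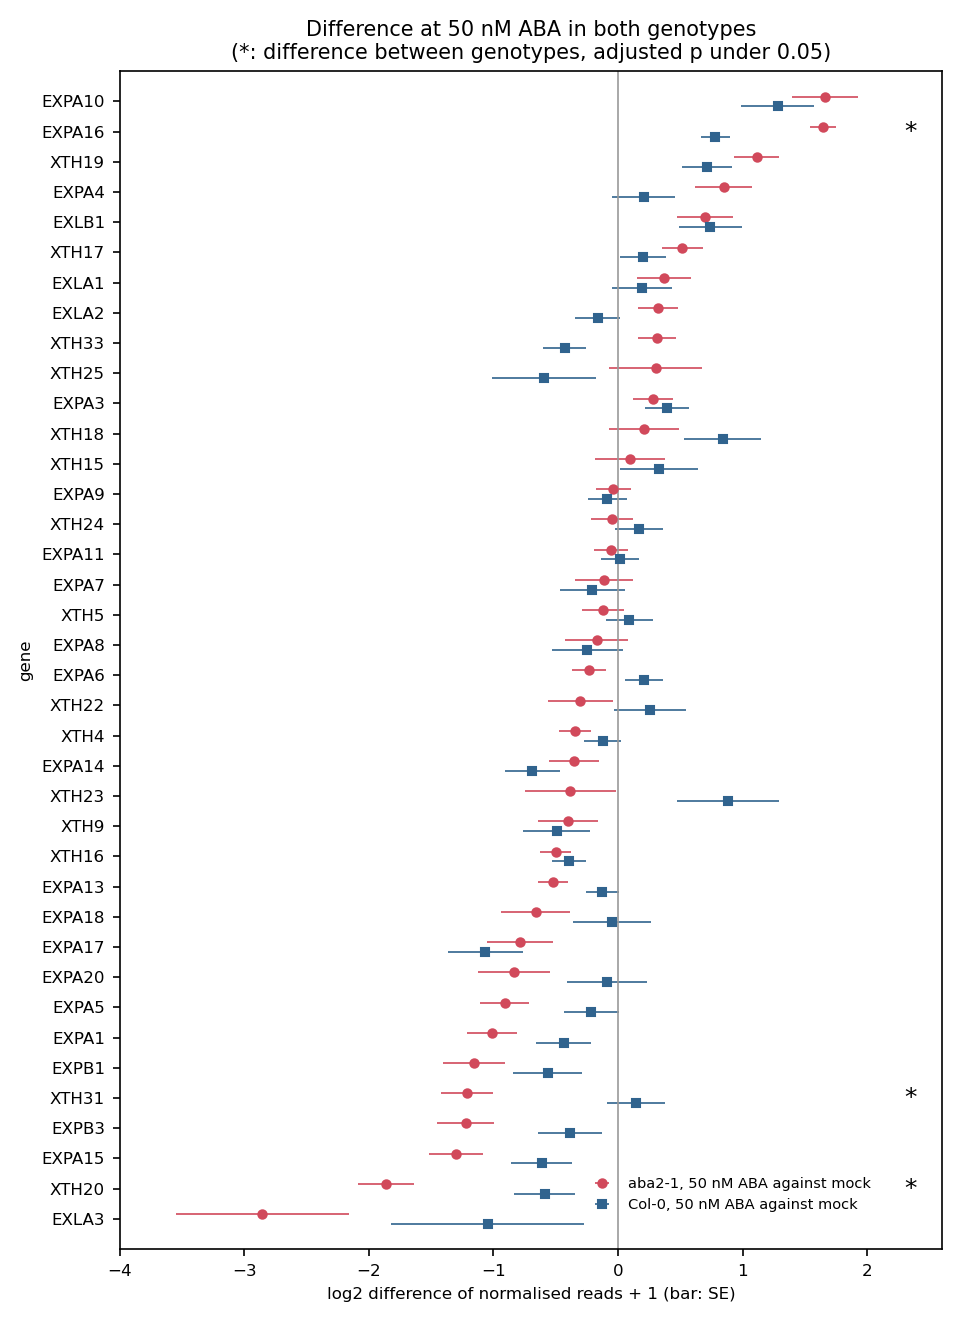
Log2 difference between 50 nM ABA and mock for each of the 38 genes tested, in aba2-1 (circles) and in Col-0 (squares), with SE as bars and genes in order of the aba2-1 value. Stars mark EXPA16, XTH31 and XTH20, whose responses differed between the genotypes by 0.86, -1.36 and -1.27.

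The mutant was compared with wild type to ask how ABA deficiency itself is reflected in these genes. No gene of the 38 passed in aba2-1 mock against Col-0 mock in limma, where 0.590% of all genes were called. Of the 38, 12 had an unadjusted limma p under 0.05, and edgeR called 2 and DESeq2 4. The shares of all genes under these criteria are not given here, so these counts were not read as a result. Without aba2-1 mock replicate 3, limma called 1. EXPA1 had the smallest p, at 1319, 1214 and 1332 in aba2-1 mock, against 2693 and 2280.1 in Col-0 mock (log2 -0.94, limma adjusted p = 0.053). XTH33 held 153, 100.2 and 158, against 256 and 189.5 (log2 -0.71, limma adjusted p = 0.062). XTH19 held 268, 234 and 309, against 480.2 and 454 (log2 -0.80, limma adjusted p = 0.08). In these 3 genes the groups did not overlap, with aba2-1 lower. EXPB1 held 114, 88.1 and 110.0, against 48.3 and 70.7, with aba2-1 higher (log2 0.81, limma adjusted p = 0.28). Of the 10 group means, those of EXPA1, EXPB3, EXPA15, EXPA17 and EXLA3 were lowest in aba2-1 50 nM ABA and highest in Col-0 mock.

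The CA lines ask how receptors that signal without added hormone bear on the same genes. PYL4 CA had the most calls: 6 rose and 1 fell against aba2-1 mock, where 2.48% of all genes were called, 1.97% higher and 0.509% lower. The rises were XTH19, XTH17, EXLA2, XTH18, XTH33 and EXPA3, and the fall was EXPA14. Without PYL4 CA replicate 1 the count was 4. The line labelled PYR1 CA had 3 calls against aba2-1 mock (1.15% of all genes, 1.04% higher and 0.114% lower), XTH19 and EXPA5 higher and EXPA14 lower. That count was 0 without replicate 2 of the line or of aba2-1 mock, and 1 without replicate 1 of either. PYL5 CA and PYL6 CA had none in limma (0.157% and 0.119% of all genes). In these lines 8 and 9 of the 38 had an unadjusted limma p under 0.05, with no share of all genes set beside them. Without PYL5 CA replicate 1, 1 gene was called in that line. Neither edgeR nor DESeq2 called a gene of the 38 in these lines. For the counts without 1 library, the shares of all genes called are not given here.

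XTH19 held 692, 686.5 and 734 in PYL4 CA and 469, 691 and 433 in the line labelled PYR1 CA, against 268, 234 and 309 in aba2-1 mock. All libraries of both lines lay above mock. The difference was 2.62-fold in PYL4 CA (log2 difference 1.39, SE 0.18, limma adjusted p = 8.2e-05) and 1.93-fold in the line labelled PYR1 CA (log2 difference 0.95, SE 0.18, limma adjusted p = 0.012). The first call held in every fit without 1 library and every other setting. The second ended without aba2-1 mock replicate 2 (0.11) or the line's replicate 2 (0.14), and with the compared groups alone (0.078). Against Col-0 mock, at 480.2 and 454, neither line passed for XTH19 (limma adjusted p = 0.16 and 0.85).

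XTH18 held 5724, 3168 and 4239.9 in PYL4 CA, against 1057, 1593 and 1965 in aba2-1 mock and 1493 and 1390.0 in Col-0 mock. The line lay above both mock groups, by 2.85-fold (log2 difference 1.51, SE 0.28, limma adjusted p = 0.0042) and 2.95-fold (log2 difference 1.56, SE 0.31, limma adjusted p = 0.012). It was the gene called in PYL4 CA against Col-0 mock, where 1.44% of all genes were called and 1.22% were higher. That call ended without Col-0 mock replicate 1 (0.11) or 2 (0.21) or PYL4 CA replicate 1 (0.097). With the compared groups alone, XTH18 passed against neither aba2-1 mock (0.09) nor Col-0 mock (0.059). XTH17 held 728, 527 and 469.7 in PYL4 CA, against 242, 325 and 306 in aba2-1 mock, with no overlap (log2 difference 0.97, SE 0.16, limma adjusted p = 0.0019). XTH20 did not follow them, at 490.2, 558 and 499.8 in PYL4 CA, against 586.5, 395 and 558 in aba2-1 mock (limma adjusted p = 0.99).

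EXLA2 (AT4G38400) held 288, 252 and 319 in PYL4 CA, against 159, 141 and 164.5 in aba2-1 mock, with no overlap (log2 difference 0.88, SE 0.16, limma adjusted p = 0.004). XTH33, an XTH known to be held at the plasma membrane, averaged 232 ± 13.0, against 137 ± 31.8 (log2 0.79, limma adjusted p = 0.0069), and EXPA3 977 ± 119, against 646 ± 115 (log2 0.60, limma adjusted p = 0.039). XTH33 lost its call without aba2-1 mock replicate 2 (0.076) or PYL4 CA replicate 1 (0.051). EXPA3 lost it without mock replicate 2 (0.29) or 3 (0.095) or PYL4 CA replicate 1, 2 or 3 (0.06, 0.13 and 0.16).

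EXPA14 (AT5G56320), linked to lateral root formation, fell in PYL4 CA and in the line labelled PYR1 CA. It held 111.5, 95.5 and 127 in the line labelled PYR1 CA and 107, 144.5 and 111 in PYL4 CA, against 265, 191 and 209.9 in aba2-1 mock. Neither line overlapped aba2-1 mock, and the lines share that mock group. The difference was -0.99 on the log2 scale (SE 0.20, limma adjusted p = 0.017) in the line labelled PYR1 CA and -0.87 on the log2 scale (SE 0.20, limma adjusted p = 0.018) in PYL4 CA. The call in the line labelled PYR1 CA ended without its replicate 1 (0.053) or 2 (0.15) or mock replicate 1 (0.075) or 2 (0.059). That in PYL4 CA ended without its replicate 1 (0.12) or 3 (0.088) or mock replicate 1 (0.097). Col-0 mock, at 154 and 167, lay below aba2-1 mock, and no CA line passed against it for EXPA14.

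EXPA5 held 97.0, 135 and 93.1 in the line labelled PYR1 CA, against 69.5, 49.5 and 64.7 in aba2-1 mock and 93.7 and 86.8 in Col-0 mock. It was called against aba2-1 mock (log2 difference 0.81, SE 0.20, limma adjusted p = 0.045), and the call ended without the line's replicate 1 (0.082) or 2 (0.38), or mock replicate 1 (0.064), 2 (0.33) or 3 (0.059), and with the compared groups alone (0.092). The line's libraries lay above all aba2-1 mock libraries and overlapped those of Col-0 mock.

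Against Col-0 mock, EXPB3 fell in 2 lines. It held 271, 359 and 407 in PYL5 CA and 277, 461 and 296 in PYL6 CA, against 822 and 801.5 in Col-0 mock and 428, 389.8 and 507 in aba2-1 mock. Both lines lay below Col-0 mock and overlapped aba2-1 mock. The difference from Col-0 mock was -1.25 on the log2 scale (SE 0.26, limma adjusted p = 0.011) in PYL5 CA, where 1.59% of all genes were called and 0.576% were lower. It was -1.27 on the log2 scale (SE 0.26, limma adjusted p = 0.036) in PYL6 CA, where 0.157% of all genes were called and 0.0856% were lower. The PYL5 CA call ended without Col-0 mock replicate 1 (0.17) or 2 (0.13), with the compared groups alone (0.18) and with weighting by group (0.12). The PYL6 CA call ended without Col-0 mock replicate 1 (0.56) or 2 (0.35) or the line's replicate 1 (0.26) or 3 (0.21), and with the compared groups alone (0.053). EXPA11 held 439.9, 401 and 374.5 in PYL5 CA, against 700.5 and 551 in Col-0 mock, with no overlap (log2 difference -0.62, SE 0.15, limma adjusted p = 0.036), and its call ended without Col-0 mock replicate 1 (0.5) or 2 (0.078) or PYL5 CA replicate 3 (0.1), with the compared groups alone (0.43) and with weighting by group (0.19). The line labelled PYR1 CA had no call among the 38 genes against Col-0 mock in limma (2.81% of all genes called). Of the 38, 9 had an unadjusted limma p under 0.05, edgeR called 1 and DESeq2 4, with no share of all genes set beside these counts. Limma called 1 without replicate 1 or 3 of the line.

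The CA lines differed among themselves in 8 of the 38 genes by an F test over the 4 lines, where 3.36% of all genes were called. They were XTH18, XTH19, XTH17, XTH31, EXPB3, EXLA2, XTH20 and EXPA16, with limma adjusted p from 0.0083 to 0.049. In 6 of them PYL4 CA had the highest mean of the lines. XTH31 averaged 611 in the line labelled PYR1 CA, 734 in PYL4 CA, 419 in PYL5 CA and 384 in PYL6 CA. EXPB3 averaged 431, 709, 346 and 345 in the same order of lines. XTH20 was highest in the line labelled PYR1 CA, at 708, and lowest in PYL6 CA, at 329.6. EXPA16 was highest in PYL5 CA and lowest in the line labelled PYR1 CA. The count was 1 without PYL4 CA replicate 1, 3 without PYL4 CA replicate 3, 2 without PYL6 CA replicate 3 and 6 to 8 without any other single library. With the compared groups alone it was 5, and XTH18 (0.055), XTH19 (0.086) and EXPA16 (0.077) were not called. These counts have no share of all genes beside them, so they do not separate these genes from all genes.

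Hypoxia markers were higher in PYL4 CA than in aba2-1 mock, beside the XTH genes. Of the 9 markers, 6 rose and none fell in PYL4 CA against aba2-1 mock (2.48% of all genes called), and 1 rose and none fell against Col-0 mock (1.44% of all genes called). Their summed reads were 6935 to 9646 in PYL4 CA, against 1865 to 2875 in aba2-1 mock and 3891 to 5197 in Col-0 mock. LBD41, a hypoxia-induced transcription factor gene, averaged 2393 ± 461, against 463 ± 107 (log2 2.37, limma adjusted p = 4.1e-05). In aba2-1 50 nM ABA 7 of the 9 rose (12.7% of all genes higher), with sums of 4334 to 10471. In Col-0 50 nM ABA 4 rose (0.790% of all genes higher), with sums of 10172 to 19707. Of the 11 ABA-induced markers, 5 rose in PYL4 CA against each mock group and 11 in aba2-1 50 nM ABA. In the line labelled PYR1 CA, 5 rose against aba2-1 mock (1.15% of all genes called). Against Col-0 mock, 4 rose and 1 fell in that line (2.81%). PYL5 CA had 1 higher against aba2-1 mock (0.157%), and 1 higher and 1 lower against Col-0 mock (1.59%). PYL6 CA had 2 higher against aba2-1 mock (0.119%) and none called against Col-0 mock (0.157%). The part of hypoxia in the XTH and expansin results was not tested.

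Other wall genes were counted at 50 nM in aba2-1, where 24.8% of all genes were called, 12.7% higher and 12.1% lower. Of 18 further XTH genes, 16 had rows and 13 were tested; 1 rose and 3 fell, with a median log2 difference of -0.28 against 0.00 for all genes. XTH14 averaged 256 ± 64 in aba2-1 50 nM ABA, against 409 ± 55.1 in mock (log2 -0.70, limma adjusted p = 0.021). Of 9 genes of xyloglucan synthesis and trimming, 2 rose and none fell, a share near that of all genes. XYL1, the alpha-xylosidase that trims xyloglucan, averaged 21929 ± 5599, against 12373 ± 999 (log2 0.80, limma adjusted p = 0.0022). BGAL10, a beta-galactosidase of the same trimming, averaged 910.2 ± 7.03, against 555 ± 31.1 (log2 0.71, limma adjusted p = 0.00043).

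Among 12 cellulose synthesis genes, 4 fell and none rose, where 12.1% of all genes were lower. The primary wall cellulose synthase genes CESA3, CESA6 and CESA2 had log2 differences of -0.45, -0.38 and -0.44, with limma adjusted p of 0.026, 0.027 and 0.036. Of 7 pectin genes, 3 fell and 1 rose. The pectin methylesterase gene PME3 averaged 3758 ± 333 in aba2-1 50 nM ABA, against 10216 ± 1250.1 in mock (log2 -1.44, limma adjusted p = 1.7e-08), while PME2 averaged 679 ± 201, against 324 ± 23.4 (log2 1.02, limma adjusted p = 0.0022). Of 8 brassinosteroid genes, the synthesis gene CPD fell (log2 -0.69, limma adjusted p = 0.041) and none rose. Of 8 touch and wound genes, the touch-induced TCH3 fell (log2 -0.53, limma adjusted p = 0.014) and none rose. Both counts lie below the 24.8% of all genes called. Of 5 guard cell markers, the anion channel gene SLAC1 rose (log2 0.80, limma adjusted p = 0.0014) and the kinase gene HT1 fell (log2 -1.04, limma adjusted p = 0.0019). Among 6 other root markers, 2 rose and 1 fell.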

How the data were processed

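RNA was sequenced from whole seedlings in 28 libraries of 10 groups. Per the labels' protocols, RNA was column-purified and DNase-treated, libraries were stranded and reads came from an Illumina NextSeq instrument. The submitters' processing notes list Trimmomatic 0.38, Salmon 1.3.0, edgeR 3.28.0 and TAIR10. The authors deposited 1 table of normalised read signal for 23686 rows, of which 5 name no locus and were kept out of tests. The deposited signal values had steps as of whole reads scaled by 1 factor per library: 100% of values were whole multiples of the library's step, within 0.01 read.

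The tests were made in R 4.3.3 with limma 3.58.1 (trend and robust) on log2(value + 1), which understates changes of genes with few reads. All libraries entered 1 fit with a mean per group, and 21023 loci with at least 10 normalised reads in 2 libraries were tested, 2-sided, with Benjamini-Hochberg adjustment over all of them and calls at adjusted p under 0.05. Folds are on that scale, SE belongs to the log2 difference and SD to normalised reads. Alternatives were a pseudocount of 0.5 or 5, no filter or a minimum of 50, TMM scaling, edgeR 4.0.16 and DESeq2 1.42.0 on the recovered whole reads, the compared groups alone, a spread weighted by group, a replicate block, and leaving out each library.

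Sequences, positions and exon lengths came from RefSeq TAIR10.1 and were read with Python 3.11.15. Promoters were the 250 bases before each gene start, since no promoter table was used here. The members, lists and tests were chosen with earlier results of these data known. Values in every sample are given for the highest expansin and XTH per length, for up to 4 called members in each direction of a comparison with the smallest p, and for called members past 1 on the log2 scale in aba2-1 50 nM ABA against mock. Up to 3 genes of a list with the smallest p in that comparison are named; EXPA7, EXPA18, EXLA1, EXPB1 and XTH33 in aba2-1 mock, XTH22, LBD41 and the levels of other members were named after their values were seen.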

Additional observations from a re-analysis of the deposited data

Results flagged for a closer look

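The response to 50 nM ABA differed between aba2-1 and Col-0 in 3 of the 38 genes, by a test of the difference itself in limma. Of all genes, 2.05% were called. With the compared groups alone EXPA16, XTH31 and XTH20 did not pass (limma adjusted p = 0.084, 0.19 and 0.25). XTH31 and XTH20 also did not pass with weighting by group (0.089 and 0.078), and both lost their calls without some single libraries, as given above. EXPA16 was higher by 0.86 in aba2-1 (adjusted p = 0.0037), with a rise of 1.64 in aba2-1 and of 0.78 in Col-0. XTH31 differed by -1.36 (adjusted p = 0.021), with -1.21 in aba2-1 and 0.14 in Col-0. XTH20 differed by -1.27 (adjusted p = 0.044), with -1.86 in aba2-1 and -0.59 in Col-0. All values are on the log2 scale.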

How the results depend on the processing

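No call of the 38 genes reversed, but F test calls have no direction and the refits reused most of the same libraries. Of the refits of called genes, F test included, 782 stayed past the threshold and 190 fell short. The counts called, reported value first, moved as follows, and the cause was not tested. The share of all genes called in each setting is not set beside them. They thus do not separate a change in these genes from a change in calls over all genes. In aba2-1 mock against Col-0 mock (0), TMM scaling gave 1, edgeR 2, DESeq2 4, the compared groups alone 4 and weighted spread 7. Leaving out the 3 libraries chosen after seeing the data gave 4. In Col-0 10 nM ABA (1), the compared groups alone gave 8, weighted spread 4 and the replicate block 0. In Col-0 50 nM ABA (2), DESeq2 gave 4, the compared groups alone 7, weighted spread 10 and leaving out the 3 libraries 4. In aba2-1 10 nM ABA (2), DESeq2 and leaving out the 3 libraries gave 5 each. In aba2-1 50 nM ABA (18), the compared groups alone and weighted spread gave 6 each. Between the doses in aba2-1 (6), the compared groups alone gave 0, weighted spread 1 and leaving out the 3 libraries 2. For the difference between genotypes (3), the compared groups alone gave 0 and weighted spread 1.

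For the lines against aba2-1 mock, that labelled PYR1 CA (3) gave 5 in DESeq2, 1 with the compared groups alone, 8 with weighted spread and 5 without the 3 libraries, and PYL5 CA (0) gave 3 without them. PYL4 CA (7) and PYL6 CA (0) stayed within 1.5 times under these settings. Against Col-0 mock, the line labelled PYR1 CA (0) gave 1 with a pseudocount of 5, a minimum of 50, TMM or edgeR, 4 in DESeq2, 5 with the compared groups alone, 9 with weighted spread and 5 without the 3 libraries. PYL4 CA (1) gave 5 in DESeq2, 8 with the compared groups alone, 12 with weighted spread, 2 with the replicate block and 6 without the 3 libraries. PYL5 CA (2) gave 0 with the compared groups alone or weighted spread, 1 with the block and 6 without the 3 libraries. PYL6 CA (1) gave 5, 7, 0 and 3 under these same settings. The F test (8) gave 5 with the compared groups alone and 13 without the 3 libraries.

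Leaving out 1 library at a time gave 0 to 1 calls for aba2-1 mock, 0 to 0 for Col-0 10 nM ABA, 0 to 3 for Col-0 50 nM ABA, 2 to 2 and 13 to 19 for aba2-1 at 10 and 50 nM, 3 to 12 between its doses and 1 to 5 between genotypes. Against aba2-1 mock it gave 0 to 3 for the line labelled PYR1 CA, 4 to 6 for PYL4 CA, 0 to 1 for PYL5 CA and 0 to 0 for PYL6 CA. Against Col-0 mock it gave 0 to 1, 0 to 1, 0 to 3 and 0 to 1, and in the F test 1 to 8. A group left with 1 library was assumed to vary like the others. The deviations of same-numbered replicates had correlations from -0.225 to 0.124. In groups of 2 or 3 libraries such correlations cannot tell whether same-numbered samples were paired. The replicate block kept 47 of 54 calls and lost 7. Groups of 2 libraries in Col-0 and few reads of EXLA3 limit what could be seen.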

Other observations

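EXPA8 averaged 279 ± 61.0 normalised reads in PYL4 CA, against 163 ± 29.5 in aba2-1 mock (log2 0.76, limma adjusted p = 0.13), and 264 ± 94.3 in Col-0 mock (SD, n = 3, 3 and 2), whose libraries spanned all of PYL4 CA. XTH23, a close relative of the touch gene XTH22 with 79.9% coding identity, averaged 1546 ± 299 in PYL4 CA, against 778 ± 281 in aba2-1 mock (log2 1.04, limma adjusted p = 0.17). XTH23 had log2 differences of 0.88 at 50 nM ABA in Col-0 and -0.38 in aba2-1, neither past the test. XTH22 and XTH25 lie 565 bases apart on chromosome 5 on the same strand, and neither was called in any comparison. These genes were named after their values were seen.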
